A study of Homo sapiens with 2 samples.

Results

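CYP1B1 and 6 further genes of the aryl hydrocarbon receptor pathway (CYP1A1, AHR, ARNT, AHRR, TIPARP and NQO1) were followed in prostate cancer cells that received the microRNA miR-99a. Members were all probe sets that the array platform's annotation gives to exactly 1 of these genes, which yielded 18 of 54675 probe sets for 7 of 19775 annotated genes. The members were chosen by the difference that CYP1B1 showed between these same arrays, so all values below are descriptions. The study holds 2 groups of 1 Affymetrix array each, both from total RNA of C4-2, an established human prostate cancer line derived from LNCaP, grown in serum-containing medium. The first group was transfected with miR-99a for 48 h, and the control group was transfected for the same time with si-GL2, an siRNA named after a luciferase reporter; both used the lipid reagent RNAiMax. With 1 array per group there is no replicate error and no p-value, and no difference below can be assigned to miR-99a rather than to si-GL2 or to any other difference between these cultures.

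The aryl hydrocarbon receptor, encoded by AHR, is a ligand-activated transcription factor of the bHLH-PAS family. It waits in the cytosol with the chaperone HSP90, enters the nucleus when bound by dioxins, polycyclic hydrocarbons or tryptophan metabolites, and pairs with ARNT on DNA elements with the core GCGTG. Its classical target genes encode the monooxygenases CYP1A1 and CYP1B1, the repressor AHRR and the ADP-ribosyltransferase TIPARP, and AHRR and TIPARP restrain the receptor. CYP1B1 also hydroxylates oestrogens and is known for its presence in hormone-responsive tumours, the prostate included.

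The transfected RNA is shown because it is the one designed difference between the arrays. RefSeq (GRCh38.p14) lists a pair of mature arms for MIR99A on the plus strand of chromosome 21, at chr21:16539101-16539122 and chr21:16539138-16539159, and the labels do not name the arm used. Capitals mark the seed, bases 2 to 8, which pairs with target messages.
hsa-miR-99a-5p: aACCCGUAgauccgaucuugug
hsa-miR-99a-3p: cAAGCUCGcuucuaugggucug

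Promoters of 6 of the 7 genes were matched in the RefSeq table (GRCh38.p14), all except CYP1B1. The 250 bases before the annotated start are shown for CYP1A1 and for the first start of TIPARP. Both are receptor targets with a measured level and the letters GCGTG in this window. The same holds for AHRR, whose windows are not shown. Whether the receptor binds at these letters was not tested. Capitals mark GCGTG on either strand (CACGC where the match is on the opposite strand). The CYP1A1 window lies on the minus strand at chr15:74725529-74725778, and its 1 match begins 57 bases before the start. The TIPARP window lies on the plus strand at chr3:156674340-156674589, with matches beginning 208 and 142 bases before the start.
CYP1A1: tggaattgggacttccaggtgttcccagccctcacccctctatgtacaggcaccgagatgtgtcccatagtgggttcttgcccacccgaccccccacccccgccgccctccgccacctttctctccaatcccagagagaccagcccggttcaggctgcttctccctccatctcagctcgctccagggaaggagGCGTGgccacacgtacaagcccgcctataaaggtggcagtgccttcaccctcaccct
TIPARP: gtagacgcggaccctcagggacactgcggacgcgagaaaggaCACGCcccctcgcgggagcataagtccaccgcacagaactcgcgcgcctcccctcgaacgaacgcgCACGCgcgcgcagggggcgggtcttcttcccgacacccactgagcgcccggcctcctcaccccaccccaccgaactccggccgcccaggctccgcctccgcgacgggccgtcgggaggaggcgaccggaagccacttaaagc
Over all annotated starts, 4 of 9 windows of the members held these letters: those of CYP1A1, 1 of TIPARP and both of AHRR. Of all 35116 windows of this length in the table, 32.2% held them. The windows of AHR, ARNT and NQO1 had no match, which says only that these letters are not in the 250 bases searched.

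Each probe set has 1 linear signal intensity per array, as the authors deposited it. Differences are given as miR-99a minus si-GL2 in log2(signal + 16), a scale that shrinks the fold change of dim probe sets. A gene was counted as measured when its brightest probe set reached the median level of all probe sets, a signal of about 47.2, which is a relative limit and not a detection call. A gene was counted as higher or lower at 1.5-fold, a difference of 0.58 on this scale. Over the 12218 genes at or above the limit the differences had a median of -0.03 and an SD of 0.26. Among probe sets of the same gene at or above the limit the differences had a pooled SD of 0.20 over 5842 genes. Probe sets below the limit were left out of this SD. The 18 hybridisation spikes lay between -0.12 and 0.06. Of 9 genes that mark C4-2 cells, 7 were analysed here, and all 7 reached the limit on levels between 378 and 6982 after miR-99a and between 312 and 7147 after si-GL2.

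CYP1B1 was higher after miR-99a by 3 of its 4 probe sets, by roughly 2-fold each. It was the 1 of the 6 measured member genes past 1.5-fold upward, and 0 were past it downward, against 1.21% of all measured genes higher and 2.90% lower. CYP1A1, the other CYP1 enzyme in the set, differed in the other direction and did not reach 1.5-fold. AHR itself lay below the level limit on both arrays, and ARNT, AHRR, TIPARP and NQO1 lay within 1.5-fold by every probe set.

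The brightest CYP1B1 probe set, 202437_s_at, had a signal of 317 on the miR-99a array and 167 on the si-GL2 array, a ratio of 1.90 and a difference of 0.86. The next, 202436_s_at, had 239 with miR-99a and 98.1 with si-GL2, a ratio of 2.43 and a difference of 1.16. The third, 202435_s_at, had 121 with miR-99a and 57.0 with si-GL2, a ratio of 2.13 and a difference of 0.91. All of these were higher on the miR-99a array and past 1.5-fold.

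The fourth CYP1B1 probe set, 202434_s_at, went the other way. It was listed at 1.0 after miR-99a and at 19.1 after si-GL2, a difference of -1.04. Both values lie far below the level limit, and 994 probe sets of the miR-99a array are listed at exactly 1, as are 1013 of the si-GL2 array. Of the single-gene probe sets below the limit, 10.5% differed by 1.5-fold or more in either direction, against 4.29% of those at or above it. Averaged over all 4 probe sets CYP1B1 was at 0.47, short of 1.5-fold, and as the median of the 3 probe sets above the limit it was at 0.91. All 4 carry the _s_ mark, which Affymetrix gives to sets whose probes match several transcripts, so no unmarked probe set of CYP1B1 was available.

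**Figure D1:**
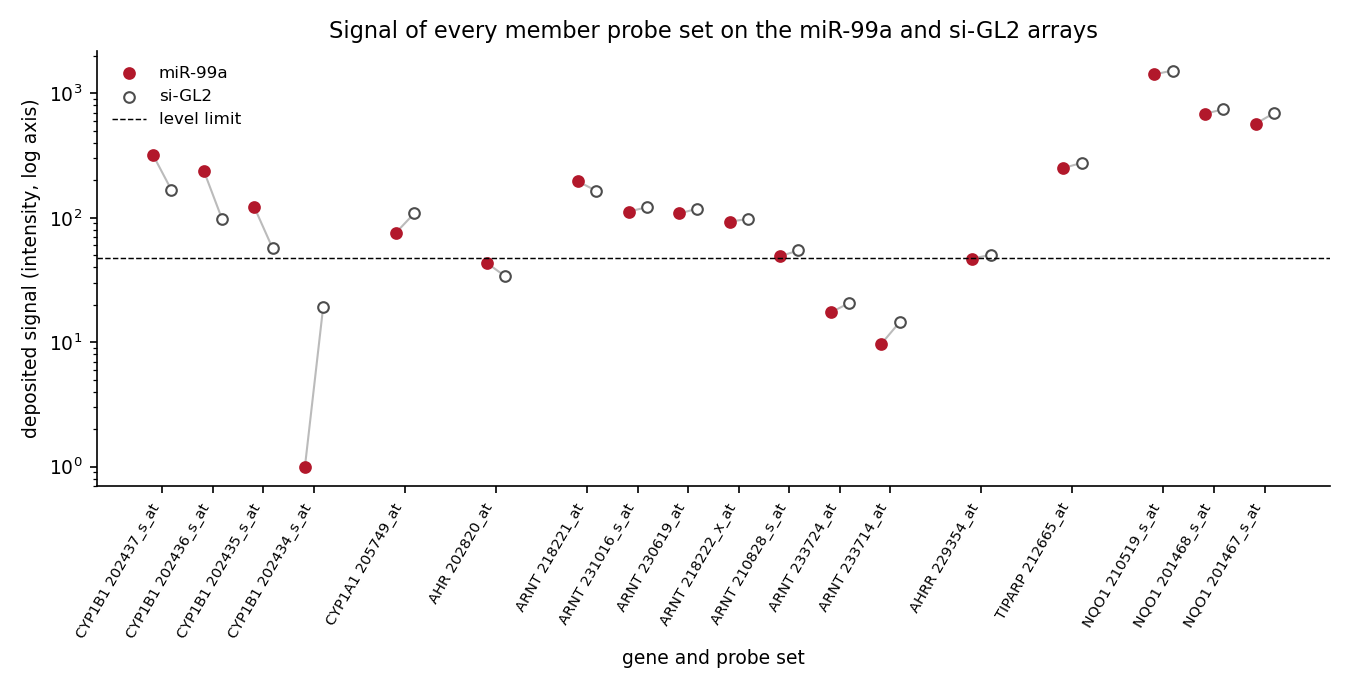
Deposited signal (log axis) of each of the 18 probe sets of the 7 genes on the miR-99a array (filled, left of each pair) and the si-GL2 array (open, right), with the level limit of 47.2 dashed. The 3 brighter CYP1B1 probe sets are higher after miR-99a, at 121 to 317 against 57.0 to 167 with si-GL2, while the CYP1A1 probe set is lower, at 75.9 against 108 with si-GL2.

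By its brightest probe set CYP1B1 ranked number 32 from the top of the 12218 measured genes, as a description of the value that led to its choice. Of 2611 genes with at least 3 probe sets at or above the limit, 5 (0.191%) had all of them 1.5-fold higher. These were CYP1B1, the interleukin receptor gene IL6R, the histone methyltransferase gene KMT5A, the adhesion receptor gene CXADR and the matrix gene THBS1. The lowest difference among the counted probe sets was 0.86 for CYP1B1, 0.80 for IL6R, 0.75 for KMT5A, 0.68 for CXADR and 0.66 for THBS1. The CYP1B1 probe set at -1.04 lies below the limit and was not counted. The place of CYP1B1 in this group is also a description of the value that led to its choice.

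**Figure D2:**
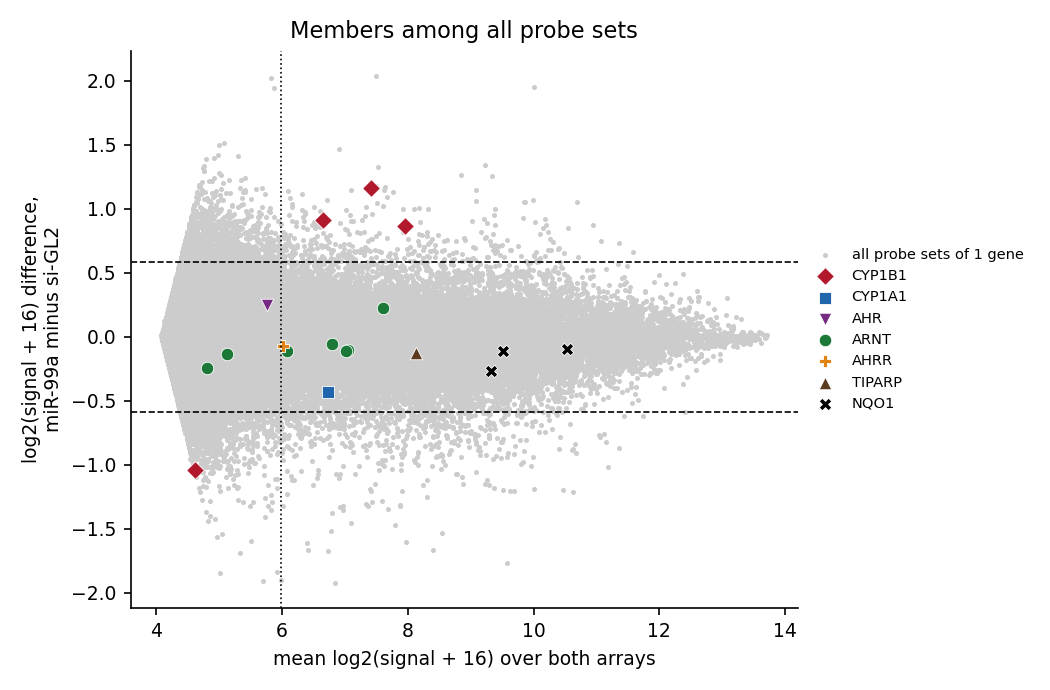
Difference in log2(signal + 16), miR-99a minus si-GL2, against the mean over both arrays for all probe sets of 1 gene (grey) and the members (coloured by gene), with 1.5-fold dashed and the level limit dotted. The 3 upper CYP1B1 points lie at 0.86 to 1.16, the fourth lies at the dim edge at -1.04, and the other members lie between the dashed lines.

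CYP1A1, the monooxygenase whose induction is the usual readout of receptor activity, is measured by 1 probe set, 205749_at. It had 75.9 with miR-99a and 108 with si-GL2, which is 1.43-fold lower as plain signals and a difference of -0.44. It was thus lower on the miR-99a array while CYP1B1 was higher. CYP1A1 stood 776th from the bottom of the 12218 measured genes.

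The receptor gene AHR was not counted as measured, and its partner ARNT lay within 1.5-fold by every probe set. AHR had 43.3 with miR-99a and 33.9 with si-GL2 by its 1 probe set, 202820_at, a difference of 0.25 between values below the level limit. ARNT, the partner that AHR shares with the hypoxia factors, is covered by 7 probe sets, 5 of them at or above the limit. The brightest, 218221_at, had 196 with miR-99a and 165 with si-GL2, a difference of 0.23. The remaining 6 were lower after miR-99a, by differences from -0.25 to -0.06, so the brightest probe set and the rest disagree on the direction. Among those 6, the next brightest, 231016_s_at, had 112 with miR-99a and 121 with si-GL2, a difference of -0.10, and the mean over all 7 was -0.08.

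AHRR and TIPARP, the feedback regulators, each rest on 1 probe set. AHRR, which competes with the receptor for ARNT, had 47.0 with miR-99a and 50.4 with si-GL2 by 229354_at, a difference of -0.08 at the level limit itself. TIPARP, which adds ADP-ribose to the receptor and so dampens it, had 251 with miR-99a and 276 with si-GL2 by 212665_at, a difference of -0.13. Neither value reaches the SD of 0.26 over all measured genes.

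NQO1, the quinone reductase that answers both to this receptor and to the oxidant sensor NRF2, was slightly lower by all 3 of its probe sets. The brightest, 210519_s_at, had 1421 with miR-99a and 1524 with si-GL2, a difference of -0.10. Probe set 201468_s_at had 686 with miR-99a and 744 with si-GL2 (-0.12), and 201467_s_at had 570 with miR-99a and 691 with si-GL2 (-0.27). The values lay between -0.27 and -0.10, a range of 0.17.

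Of the 14 member probe sets of genes other than CYP1B1, 12 were lower after miR-99a, where 51.0% of all single-gene probe sets were below 0. Probe sets of 1 gene share its RNA and are not independent. The 2 above 0 were the AHR probe set and the brightest ARNT probe set. The 5 measured members other than CYP1B1 had a median difference of -0.10, beside -0.03 over all measured genes. By the brightest probe set 4 of these 5 were below 0, where 56.3% of all measured genes were.

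**Figure D3:**
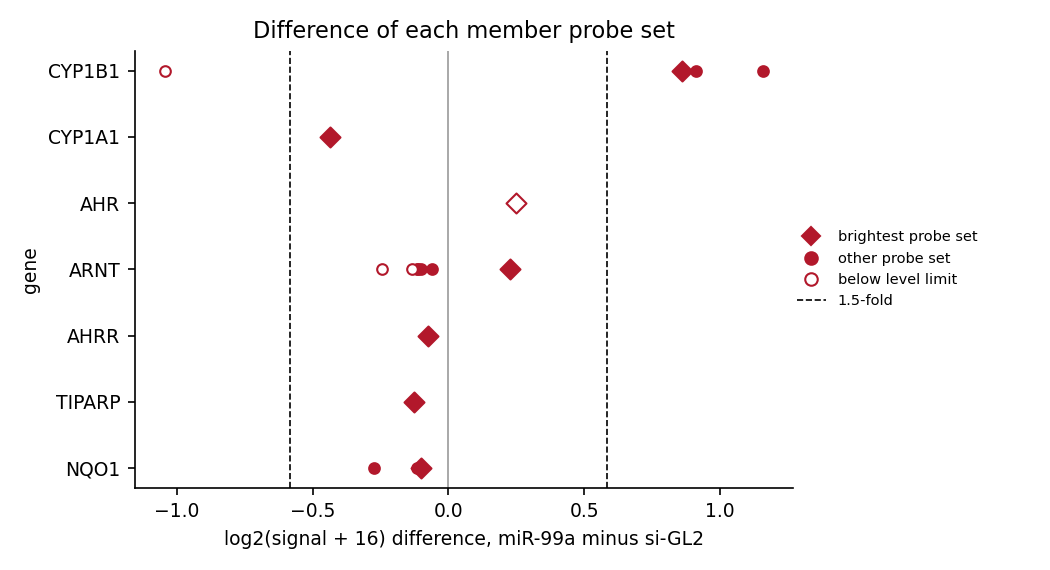
Difference in log2(signal + 16), miR-99a minus si-GL2, of each probe set by gene, with diamonds for the brightest probe set, circles for the others and open symbols below the level limit; dashed lines mark 1.5-fold. CYP1B1 spans -1.04 to 1.16, and all probe sets of the other 6 genes lie between -0.44 and 0.25.

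The genes next to CYP1B1 on chromosome 2 did not share its difference. RMDN2 had 79.2 with miR-99a and 77.6 with si-GL2 (0.02), and CDC42EP3, an effector of the GTPase CDC42, had 530.4 with miR-99a and 500.3 with si-GL2 (0.08). By start coordinate, the next annotated gene after CYP1B1 with a probe set was the non-coding CYP1B1-AS1. Whether it overlaps CYP1B1 was not examined. CYP1B1-AS1 was below the limit by both of its probe sets. They had 9.74 with miR-99a and 13.3 with si-GL2, and 1.0 with miR-99a and 15.7 with si-GL2. TIPARP-AS1, which lies antisense over the start of TIPARP, was also below the limit, at 21.7 with miR-99a and 39.2 with si-GL2.

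The genes whose pair of values lay nearest to that of CYP1B1, by Euclidean distance on the log2 scale over the 2 arrays, were RBPMS2 (0.05), CHST2 (0.17), NCOA7 (0.17), GRK2 (0.22) and ENC1 (0.23). RBPMS2, an RNA-binding protein gene with 1 probe set, had 306 with miR-99a and 167 with si-GL2, a difference of 0.82. ENC1, a Kelch protein gene, had 371 with miR-99a and 178 with si-GL2, a difference of 1.0, and a mean of 1.0 over its 2 probe sets. The sulfotransferase gene CHST2, the nuclear receptor coactivator gene NCOA7 and the kinase gene GRK2 were at 0.70, 0.62 and 0.54, but at 0.18, 0.24 and 0.36 as means over all their probe sets. Likeness over 2 arrays describes only a similar level and difference.

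The list of the receptor, ARNT and the genes of the cytosolic receptor complex had 7 genes analysed, of which 6 were measured and 0 were past 1.5-fold in either direction; the median was 0.07. Without AHR and ARNT, the 5 genes of the cytosolic complex had a median of 0.06. HSP90AB1, which encodes an HSP90 chaperone, had 6500 with miR-99a and 5704 with si-GL2 (0.19) and was the highest of these 5. HSP90AA1 had 8107 with miR-99a and 8218 with si-GL2 (-0.02) and was lowest, followed by the ubiquitin ligase gene STUB1 at 0.04. The bHLH-PAS relatives that can pair with ARNT or resemble it had 9 measured members, of which 0 passed 1.5-fold, with a median of 0.06. HIF1A, the hypoxia factor, was highest, with 5224 with miR-99a and 4136 with si-GL2 (0.34), followed by the clock factor BMAL1 at 0.22. The clock genes PER2 (-0.26) and CLOCK (-0.20) were lowest.

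Among the genes known as receptor targets, CYP1B1 was the 1 past 1.5-fold. Of 18 analysed, 12 were measured, and 0 were 1.5-fold lower; the median was -0.06, beside -0.03 over all measured genes. The 7 that are not members had a median of 0.10. SLC7A5, a transporter of large neutral amino acids, was next to CYP1B1, with 1156 with miR-99a and 833 with si-GL2 (0.47). CYP1A1 and TIPARP were lowest. CYP1A2, the third enzyme of the CYP1 family and a liver gene, had 239 with miR-99a and 249 with si-GL2 (-0.06) by a probe set marked _x_, which can bind other transcripts. Its second was at 7.94 with miR-99a and 10.5 with si-GL2. The classical targets ALDH3A1 and UGT1A6 were below the limit on both arrays.

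Targets of NRF2, which shares NQO1 with the receptor, had 16 measured members with a median of 0.13. SLC7A11, the cystine transporter, was the 1 past 1.5-fold, with 1405 with miR-99a and 748 with si-GL2 (0.90) and further probe sets at 0.95 and 0.34. The pentose phosphate enzyme gene PGD was at 0.45 by its brightest probe set, with others at 0.16 and -0.18. GCLC, the catalytic subunit of glutamate-cysteine ligase, was lowest at -0.30, followed by TXNRD1 at -0.10, beside NQO1 itself at -0.10.

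A list of steroid hydroxylation and conjugation genes and partners of CYP1B1 had 9 measured members. Of these 0 were higher and 1 was lower at 1.5-fold, with a median of -0.12. The steroid sulfatase gene STS had 79.8 with miR-99a and 141 with si-GL2 (-0.71) by its brightest probe set, while the second measured one was at -0.09. CYP1A1 came next. GSTM1 and GSTP1, glutathione transferases, were highest at 0.38 and 0.30, and POR, the electron donor of microsomal P450 enzymes, was at -0.12. The list of TIPARP and its family relatives had 7 measured members, of which 0 passed 1.5-fold, and a median of -0.15, the value of ZC3HAV1. PARP11 (-0.31) and PARP10 (-0.22) were lowest, and PARP14 (0.05) and PARP12 (-0.02) highest.

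The cytochrome P450 family outside the members had 53 annotated symbols, some of them pseudogenes or antisense RNAs, and 17 were measured. Of these 0 were 1.5-fold higher and 1 was 1.5-fold lower, with a median of -0.09. The one was CYP4F2, a fatty acid hydroxylase gene, with 43.8 with miR-99a and 76.5 with si-GL2 (-0.63) by a single probe set marked _x_. CYP4V2 was next lowest at -0.29. CYP4F3 (0.30) and CYP2D6 (0.21) were highest, so by the brightest probe set CYP1B1 at 0.86 lay above every other measured P450 gene. As means over all probe sets CYP2D6 was at 0.51 and CYP1B1 at 0.47, so that order turned.

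**Figure D4:**
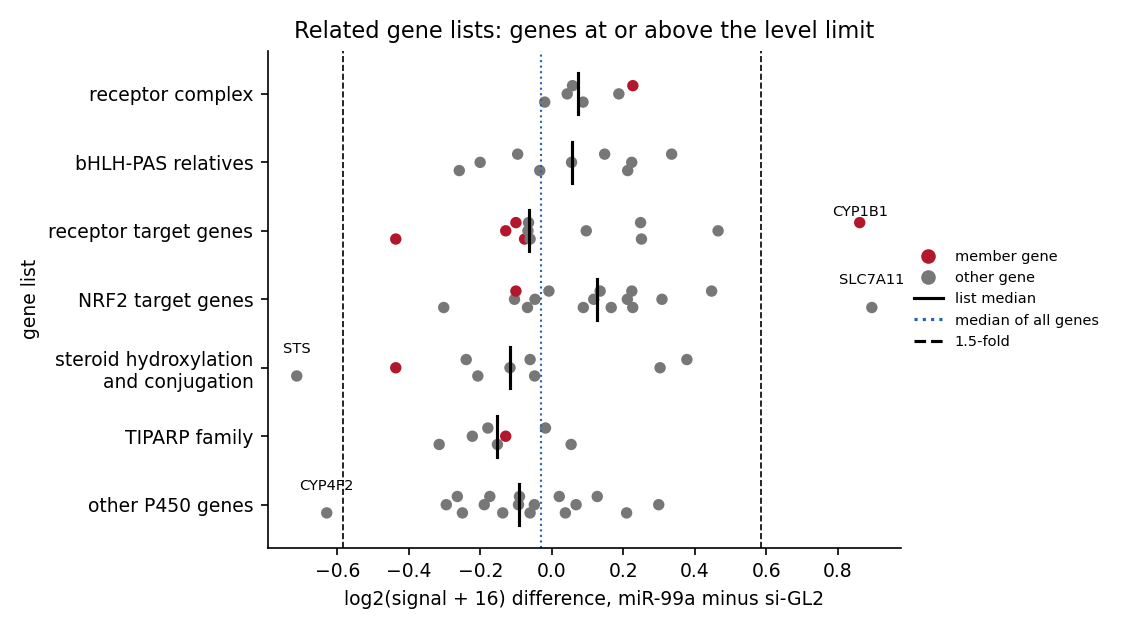
Difference in log2(signal + 16), miR-99a minus si-GL2, of each measured gene (brightest probe set) in 7 lists related to the receptor, with members in red, other genes in grey, list medians as black bars, the median of all measured genes (-0.03) dotted and 1.5-fold dashed. CYP1B1 (0.86) and SLC7A11 (0.90) are the points to the right of 1.5-fold, STS (-0.71) and CYP4F2 (-0.63) those to the left.

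Of 9 markers of other cell types analysed, 6 reached the level limit. Both arrays hold RNA of the C4-2 line, and this limit is not a detection call. Reaching it does not show that such cells were present. By their brightest probe sets the 4 fibroblast markers, all measured, had summed signals of 458 with miR-99a and 405 with si-GL2. Their median difference was 0.26, with COL1A1 at -0.02 and LUM at 0.42. As means over all probe sets COL1A1 was at 0.08, COL1A2 at -0.11, DCN at 0.07 and LUM at 0.15. Of 2 leukocyte markers analysed 1 was measured, CD3E, with 73.2 with miR-99a and 52.8 with si-GL2 (0.37). Of 3 endothelial markers 1 was measured, PECAM1, with 194 with miR-99a and 167 with si-GL2 (0.20). PECAM1 reached the limit by 1 of its 5 probe sets. PTPRC, VWF and CDH5 were below the level limit. The part of these differences in the CYP1B1 value was not tested. In RNA from whole cultures, fewer cells of a kind and less RNA per cell cannot be told apart.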

How the data were processed

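Total RNA of C4-2 cells was measured on 2 Affymetrix arrays, 1 per group. The authors' deposited values are linear signal intensities, 1 for each probe set; labelling followed the Affymetrix procedure, per the labels' protocols. For summarisation and scaling, nothing is given in the sources used here. Deposited intensities ran from 0.70 to 13495 with array medians of 47.8 for miR-99a and 47.4 for si-GL2, and the number of arrays limits precision. Values were used as deposited, with a pseudocount of 16 before log2. The platform annotation gave 1 gene to 41091 probe sets, several to 1801 and none to 11721, and 62 were controls. The brightest probe set stood for a gene. The named genes are all members, of each list the 2 highest, 2 lowest and any past 1.5-fold, and the 5 nearest to CYP1B1; others were named after their values were seen. Members and lists were chosen with earlier results of these data known. The count at 1.5-fold was tested on simulated data with known fold changes, a check of the calculation and not of the differences reported here. Alternatives were pseudocounts of 1 and 64, centring, quantile normalization, means or medians over probe sets, no _x_ or _s_ probe sets, a 2-fold rule, no level limit, a 75th percentile limit and, chosen after seeing the data, each other CYP1B1 probe set. Python 3.11.15, numpy 2.4.6, pandas 2.3.3 and matplotlib 3.10.9 were used.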

Additional observations from a re-analysis of the deposited data

How the results depend on the processing

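CYP1B1 kept its direction and stayed past 1.5-fold with pseudocounts of 1 (0.92) and 64 (0.72), after centring (0.85), after quantile normalization (0.92) and as a median over probe sets at or above the limit (0.91). As a mean over all probe sets it was at 0.47 and 0 members were past 1.5-fold, since that mean takes in the dim probe set at -1.04. Taken alone, with this choice made after seeing the data, 202436_s_at gave 1.16, 202435_s_at 0.91 and 202434_s_at -1.04, the reverse direction. Without _x_ and _s_ probe sets CYP1B1 and NQO1 had no value, 4 members were measured and 0 were past 1.5-fold; by a 2-fold rule 0 were past it as well. ARNT moved to -0.08 as a mean and -0.10 as a median over probe sets, against 0.23 by its brightest. The other member genes kept their direction under every alternative that gave them a value. Among lists, the 1 steroid gene past 1.5-fold was lost (0) under 6 alternatives and the 1 P450 gene under 4, while without a level limit 3 P450 genes were past it. The 1 NRF2 target became 2 without _x_ and _s_ probe sets, and 0 at 2-fold, and the 1 receptor target became 0 as means over probe sets, without _x_ and _s_ probe sets and at 2-fold. The cause of these list changes was not tested. No paired analysis was possible because each group has 1 array.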
